A study of Mus musculus with 12 samples.

Results

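The subunits of the oxidative phosphorylation machinery were followed in bone marrow cells cultured with indole-3-propionic acid (IPA), a metabolite that gut bacteria make from tryptophan. Members were chosen by symbol: genes beginning with Nduf and a subunit letter (complex I), Sdha to Sdhd (complex II), Uqcr (complex III), Cox4 to Cox8 (complex IV) or Atp5 (complex V), and the protein-coding genes of the mitochondrial genome. Symbols of pseudogenes holding "-ps" were left out. Of 102 rows that matched, 97 had more than 0.5 CPM (reads of a gene per 1000000 reads counted in the library) in at least 2 of the 12 libraries, out of 14894 genes that passed this filter in all. They comprised 84 nuclear and 13 mitochondrially encoded genes. The other 5 rows, Cox7b2, Cox8b, Cox8c, Ndufa11b and a second row named Atp5o, had at most 3 reads in any library and were not tested.

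All 12 libraries came from bone marrow cells of C57BL/6 mice of the WT genotype, kept in medium with GM-CSF and IL-6, which drive myeloid cells to multiply and mature, and harvested on day 5. The 3 groups of 4 libraries each differed in what the medium held besides, namely the vehicle alone (0.1% DMSO), IPA at 10 µM or IPA at 50 µM. IPA was added again on day 3 with fresh medium per the labels, whereas the study's methods give a change of medium at shorter intervals. The labels do not say whether the libraries of a group came from separate mice or cultures, so p-values measure the spread between these libraries, which may be technical. The cells were a mixture, and in bulk RNA fewer cells of a type and less RNA per cell cannot be told apart.

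Oxidative phosphorylation takes place in the inner mitochondrial membrane. Complexes I and II pass electrons from NADH and succinate to ubiquinone, complex III passes them on to cytochrome c, and complex IV hands them to oxygen. Complexes I, III and IV pump protons, and complex V, the ATP synthase, uses the resulting gradient to make ATP. Each complex except complex II mixes subunits of nuclear genes with subunits that the mitochondrial genome encodes and that mitochondria transcribe and translate themselves, so assembly needs the output of both genomes. In macrophages and other myeloid cells the balance between glycolysis and respiration is known to shift with activation. Some subunits have a second isoform made in few tissues, such as Cox6a2 in heart and skeletal muscle.

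The sequences bear on how far single mitochondrial genes could be measured. A stretch of chromosome 1 of GRCm38, chr1:24611535-24616197, holds nuclear copies of mitochondrial genes. Copies of 7 of them are annotated there, as unprocessed pseudogenes on the minus strand. Every stretch of 50 bases in mt-Co2 also occurred in another gene, chiefly in the copy Gm28661, and no such stretch of mt-Cytb did. The first 60 bases of both genes are shown with the start codon in capitals, followed by the first 30 bases of mt-Nd3 and of its copy Gm28438 with the base that differs in capitals (GENCODE M21, GRCm38).
mt-Co2, chrM:7013-7072 (+): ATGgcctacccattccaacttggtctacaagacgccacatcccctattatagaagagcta
mt-Cytb, chrM:14145-14204 (+): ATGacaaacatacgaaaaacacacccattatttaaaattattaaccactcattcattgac
mt-Nd3, chrM:9459-9488 (+): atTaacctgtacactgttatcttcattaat
Gm28438, chr1:24613090-24613119 (-): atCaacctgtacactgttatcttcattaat
The first 60 bases of mt-Co2 occurred unchanged in Gm28661, and those of mt-Cytb in no other gene. Over the 345 bases that mt-Nd3 and Gm28438 have in common, 1 base differed, T3C, counted from 1 at the 5′ end of mt-Nd3. The share of 50-base stretches found elsewhere was also above 97% for mt-Co3, mt-Atp6, mt-Nd3 and mt-Nd4l, 62.2% for mt-Nd4 and 51.1% for mt-Co1, and at most 8.19% for mt-Nd1, mt-Nd2, mt-Nd5, mt-Nd6 and mt-Atp8. Only annotated genes were searched. The start of mt-Atp8 lies between mt-Co2 and mt-Atp6, whose copies are neighbours on chromosome 1. Whether mt-Atp8 is copied there without annotation was not examined, so its low share does not show that it could be read alone. Among the nuclear members, Ndufb4c (all stretches) and Cox6c2 (52.7%) shared most of their sequence with other genes, and their counts are uncertain.

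Promoters of the nuclear members were examined because many respiratory genes are known targets of nuclear respiratory factor 1 (NRF1), of factors of the ETS family such as GABPA, and of YY1. RefSeq promoters of GRCm38.p6, from 250 bases before the start site to 50 bases from it on, were found for 64 of the 84 nuclear members by symbol. The letters CGCANGCGC, known from NRF1 sites, occurred on either strand in 23 of these 64 (35.9%), against 14.7% of the 10317 tested genes with a promoter. CCGGAAG, an ETS motif, occurred in 16 (25.0% against 19.8%), and AAGATGGCG, a YY1 motif, in 7 (10.9% against 3.48%). CCGGAAG ends and AAGATGGCG begins with AAG, so 1 stretch can match both. The stretches of 60 bases below hold a match to the NRF1 letters, in capitals, upstream of the start site, in the 3 such members with the highest expression and in Ndufa12, which is described again with the results at 50 µM.
Atp5c1, chr2:10080433-10080492 (-): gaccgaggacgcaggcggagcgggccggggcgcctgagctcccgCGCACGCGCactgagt
Sdha, chr13:74350303-74350362 (-): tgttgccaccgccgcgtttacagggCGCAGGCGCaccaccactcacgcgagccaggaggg
Sdhd, chr9:50603893-50603952 (-): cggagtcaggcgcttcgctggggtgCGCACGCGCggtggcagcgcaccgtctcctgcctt
Ndufa12, chr10:94198890-94198949 (+): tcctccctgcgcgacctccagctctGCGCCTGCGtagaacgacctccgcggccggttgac
The match began 16 bases before the start site in Atp5c1, 97 in Sdha, 78 in Sdhd and 120 in Ndufa12. By complex, it was found in 9 of 39 nuclear members of complex I, 2 of 4 of complex II, 3 of 8 of complex III, 1 of 16 of complex IV and 8 of 17 of complex V, members without a promoter in the table included in these totals. A match describes the letters only and was not tested as a binding site.

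Expression levels differed widely between members, least within complex II. Library totals ran from 20451312 to 28038612 counted reads. Values are CPM, normalized by edgeR's trimmed mean of M-values (TMM) over the 12 libraries. The 84 nuclear members together took 0.716 to 0.921% of the reads of a library and the 13 mitochondrially encoded ones 0.622 to 1.22%. Atp5b, the catalytic beta subunit of the ATP synthase, had the highest mean CPM of the nuclear members (1135 over the 12 libraries), and mt-Co1, the catalytic core of complex IV, that of the mitochondrial ones (3739). Among the nuclear members of complexes II, III and IV the highest were Sdha (261), which carries the flavin of complex II, Uqcrc1 (176), a core protein of complex III, and Cox4i1 (284), the common form of subunit 4 of complex IV. At the other end, 9 nuclear members had a mean under 5 CPM over the 12 libraries, the isoforms of narrow expression Cox4i2, Cox6a2, Cox6b2, Cox6c2, Cox7a1 and Ndufa4l2 beside Ndufb2, Ndufb4c and Atp5s.

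At 10 µM, no member passed the test. Tests were edgeR's quasi-likelihood test on the 8 libraries of the groups compared, with Benjamini-Hochberg adjustment over all 14894 genes and a threshold of 0.05 on the adjusted p. Among all genes tested, 0.329% were called higher and 0.0806% lower than with vehicle, so that a list of 97 genes at these shares would hold less than 1 called gene. At an unadjusted p under 0.05 there were 3 members by edgeR's test, Ndufa4l2, Ndufs1 and Atp5k, which is 3.09% of them beside 8.78% of all genes tested. The DESeq2 and limma-voom fits also called no member after adjustment. Of all genes DESeq2 called 1.32% higher and 0.356% lower, and limma-voom 0.336% and 0.0873%. Ndufa4l2, an isoform of Ndufa4 that is known to be induced in low oxygen, had 0.341, 0.891, 0.896 and 0.676 CPM in vehicle replicates 1 to 4 and 1.12, 2.13, 1.62 and 0.962 at 10 µM. The 10 µM libraries all lay above the vehicle libraries, but the difference did not pass the threshold (log2 fold change 1.05, SE 0.39, adjusted p = 0.427). Ndufs1, the largest core subunit of complex I, had 90.1, 85.3, 82.6 and 85.6 CPM with vehicle and 77.2, 77.5, 77.6 and 81.6 at 10 µM. All 10 µM libraries lay below the vehicle libraries, by a small amount (log2 fold change -0.13, SE 0.06, adjusted p = 0.551 by edgeR's test). These 2 were the only members whose groups did not overlap, 1 higher and 1 lower, against 3.57% of all genes higher and 2.56% lower without overlap.

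The medians of the complexes also lay close to 0 at 10 µM. The median log2 fold change was 0.03 over 39 nuclear members of complex I, 0.05 over 4 of complex II, -0.01 over 8 of complex III, 0.07 over 16 of complex IV and 0.05 over 17 of complex V. Over the mitochondrially encoded members it was -0.13, and over all genes tested -0.01. The sign of both overall medians rested on single libraries: that of the nuclear members went from 0.04 to -0.01 without 10 µM replicate 1, and that of the mitochondrial members to 0.07 without vehicle replicate 2.

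At 50 µM, 10 members passed the test against vehicle, 8 higher and 2 lower. The 8 were Ndufa6 and Ndufa12 of complex I, Uqcrq of complex III, Cox6a2, Cox7c and Cox8a of complex IV, and mt-Nd3 and mt-Co2 of the mitochondrial genome. Ndufa4l2 and Cox4i2 fell. The 8 were 8.25% of the members, close to the 7.00% of all genes that were called higher, and the 2 were 2.06%, below the 6.50% called lower. Against 10 µM, 7 members were higher, Uqcrc2, Uqcrq, Cox6a2, Cox7c, mt-Nd1, mt-Cytb and mt-Co2, and the same 2 were lower. These shares, 7.22% and 2.06%, compare with 7.52% and 7.85% of all genes. The comparisons share the 50 µM libraries. For such cultures the study reports slightly reduced viability at the higher dose of IPA. For this reason the authors centred their own analysis on the lower dose. The part of viability in the differences at the higher dose was not tested. Most members, those that passed included, had a positive log2 fold change: 76 of 84 nuclear and 10 of 13 mitochondrial members were above 0 against vehicle, and 69 and 11 against 10 µM, beside 51.8% and 51.4% of all genes tested. Among those that did not pass, 78 of 87 members were above 0 against vehicle and 73 of 88 against 10 µM, mostly by small amounts, as the plot by complex shows.

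**Figure D1:**
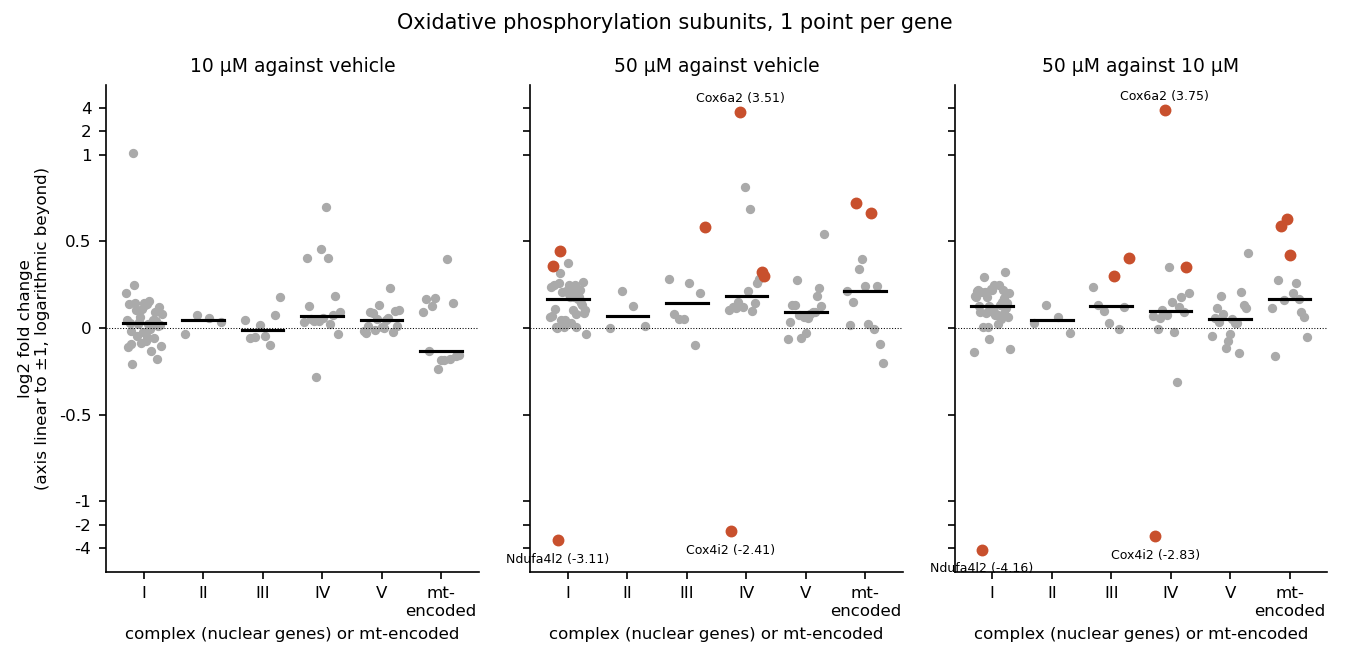
Log2 fold change of each of the 97 members (vertical axis, linear to ±1 and logarithmic beyond) by complex for the nuclear genes and for the mitochondrially encoded genes, in the 3 comparisons. Red points passed edgeR's test, grey points did not, and black bars are medians; at 50 µM most points lie slightly above 0 and only Cox6a2, Cox4i2 and Ndufa4l2 lie far from it.

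Cell type markers moved at the same dose. Of 12 neutrophil markers, 8 fell and none rose at 50 µM against vehicle, with summed levels of 20684 to 29228 CPM with vehicle, 19196 to 22200.3 at 10 µM and 14426 to 20085 at 50 µM. Of 6 Ly6C-high monocyte markers 3 fell (2686 to 3424, 3837 to 4924 and 2417 to 3119.6 CPM), and of 12 macrophage markers 2 rose and 3 fell (1979 to 2193, 2336 to 2570.3 and 1952 to 2113 CPM). All 5 B cell markers rose, from 48.4 to 63.8 CPM with vehicle to 80.3 to 116 at 50 µM, and 3 of 7 dendritic cell markers rose (88.6 to 103 and 115 to 147 CPM). Summed erythroid markers stayed at or below 1.30 CPM in every library. The 7 mast cell and basophil markers summed to 323 to 399 CPM with vehicle, 261 to 352 at 10 µM and 302 to 409 at 50 µM. Of these, Kit fell at 50 µM against vehicle, Prss34 rose against 10 µM, and Mcpt4 was at 0 in all libraries. At 50 µM against 10 µM, 7 of 12 neutrophil, 5 of 6 Ly6C-high monocyte and 8 of 12 macrophage markers fell. In these lists only 1 macrophage marker rose. In the same comparison 4 of 5 B cell and 2 of 7 dendritic cell markers rose. Of all genes tested, 7.00% were called higher and 6.50% lower at 50 µM against vehicle, and 7.52% and 7.85% against 10 µM. The part of these marker shifts in the values of the respiratory subunits was not tested.

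The largest log2 fold changes among the members that passed at 50 µM were in isoforms of narrow expression, all under 10 CPM in every library. Cox6a2 (ENSMUSG00000030785, chr7:128205435-128206387, minus strand), the heart and muscle form of a small regulatory subunit of complex IV, had 0.341, 0.446, 0.538 and 0.994 CPM in vehicle replicates 1 to 4, 1.01, 0.145, 0.376 and 0.321 at 10 µM and 4.45, 6.34, 8.01 and 7.56 at 50 µM. Every 50 µM library lay above every other library. The rise over vehicle was 11.4-fold (log2 fold change 3.51, SE 0.31, adjusted p = 1.24e-05 by edgeR's test) and over 10 µM 13.4-fold (log2 fold change 3.75, SE 0.36, adjusted p = 4.83e-06 by edgeR's test). Without 10 µM replicate 1, the highest of its group, the log2 fold change against 10 µM was 4.498. The rise rested on 58, 48 and 609 reads per group. The gene lies within Itgad, an integrin gene on the other strand, and the strand setting of the counting is not given in the sources used here. Itgad itself had 0.728 ± 0.176 CPM (SD, n = 4) with vehicle and 1.17 ± 0.248 at 50 µM and did not pass (log2 fold change 0.68, adjusted p = 0.225 by edgeR's test). Cox6a1, the form made in most tissues, had 127 ± 18.0 CPM (SD, n = 4) with vehicle and 140.5 ± 7.07 at 50 µM and did not pass (log2 fold change 0.15, SE 0.10, adjusted p = 0.332 by edgeR's test). Per exon length, Cox6a2 made up 0.453 ± 0.153% of the summed level of both forms with vehicle, 0.352 ± 0.241% at 10 µM and 4.60 ± 1.01% at 50 µM (SD, n = 4), so the common form still prevailed.

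Ndufa4l2 (ENSMUSG00000040280, chr10:127514967-127517154, plus strand) went the other way. Its counts were 9, 24, 20 and 17 reads with vehicle, 31, 44, 43 and 21 at 10 µM and 4, 3, 0 and 0 at 50 µM. The 50 µM libraries lay below all others, and 2 of them had no read. In CPM the means were 0.701 ± 0.261, 1.46 ± 0.528 and 0.0763 ± 0.0948 (SD, n = 4). The fall was 8.63-fold against vehicle (log2 fold change -3.11, SE 0.76, adjusted p = 0.0157 by edgeR's test) and 17.9-fold against 10 µM (log2 fold change -4.16, SE 0.65, adjusted p = 0.000485 by edgeR's test), at levels where few reads set the size. Without 50 µM replicate 1 the log2 fold changes were -3.94 and -4.97. Its 3′ end overlaps the end of Shmt2 on the other strand. Shmt2, a mitochondrial enzyme of serine metabolism, was higher at 50 µM (log2 fold change 0.53, adjusted p = 0.00203 by edgeR's test), in the opposite direction to Ndufa4l2. Ndufa4, the common form, is counted here with complex I by its symbol, although its protein was later assigned to complex IV. It had 62.3 ± 10.4 CPM with vehicle, 53.9 ± 3.17 at 10 µM and 62.1 ± 4.95 at 50 µM (SD, n = 4) and passed in no comparison.

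Cox4i2 (ENSMUSG00000009876, chr2:152754173-152765037), a form of subunit 4 known from lung and from cells in low oxygen, had 11, 29, 20 and 51 reads with vehicle, 28, 40, 38 and 33 at 10 µM and 9, 2, 7 and 0 at 50 µM. The counts at 50 µM lay below those of all other libraries. In CPM, 50 µM replicate 1 (0.440) lay above vehicle replicate 1 (0.416). The difference was -2.41 (SE 0.74, adjusted p = 0.0471) against vehicle and -2.83 (SE 0.60, adjusted p = 0.00477) against 10 µM on the log2 scale by edgeR's test. The call against vehicle had the highest adjusted p of the 10 and was kept in 2 of the 8 fits without 1 library. Without 50 µM replicate 1 the differences were -3.04 and -3.45. Cox4i1, its common counterpart, had 275 ± 45.8, 281 ± 35.3 and 294 ± 43.4 CPM in the 3 groups (SD, n = 4). Cox4i2 made up 0.754 ± 0.358% of the pair per exon length with vehicle and 0.136 ± 0.137% at 50 µM. The other isoforms of narrow expression did not pass in any comparison. Cox7a1, the muscle form of subunit 7a, had a log2 fold change of 0.10 (SE 0.38, adjusted p = 0.902) and Cox6b2, the testis form of subunit 6b, of 0.82 (SE 0.46, adjusted p = 0.273) at 50 µM against vehicle by edgeR's test.

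**Figure D2:**
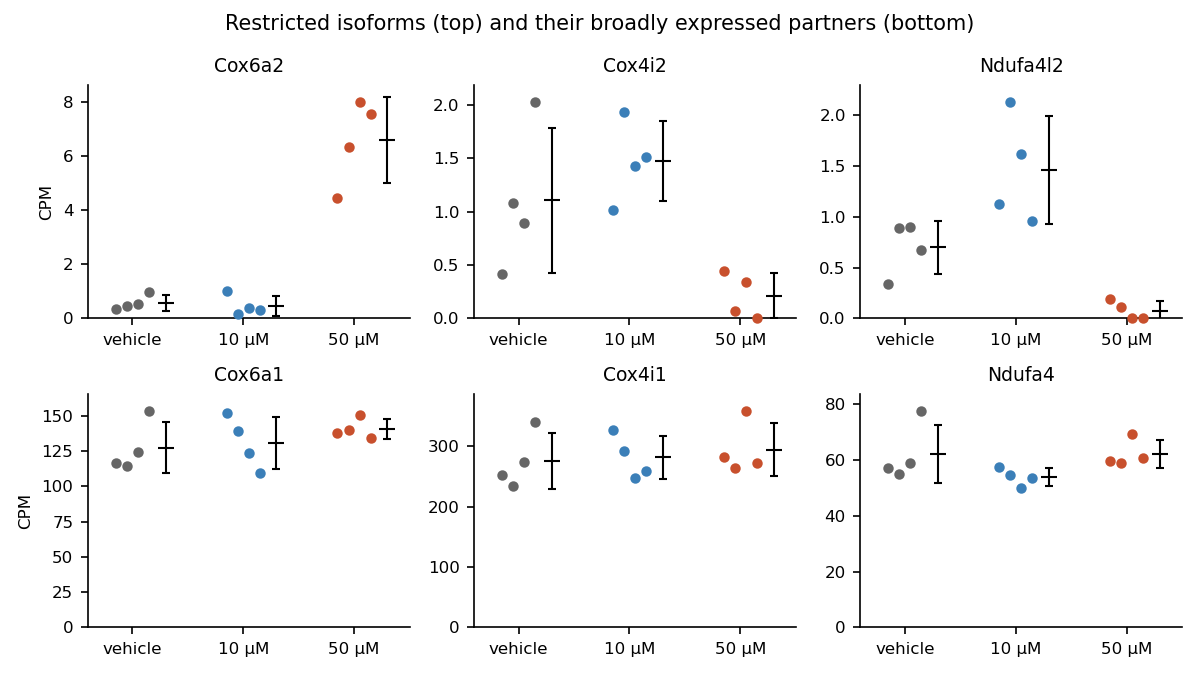
CPM of Cox6a2, Cox4i2 and Ndufa4l2 (top) and of their common counterparts Cox6a1, Cox4i1 and Ndufa4 (bottom) in each library, with the mean and SD of the 4 libraries of a group to the right of its points. Cox6a2 lies above all other libraries at 50 µM, Ndufa4l2 lies below them, and the common forms overlap between groups except Ndufa4 between 10 and 50 µM.

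Among the broadly expressed nuclear subunits of complex I, 2 passed at 50 µM against vehicle, both small accessory subunits. Ndufa6 (ENSMUSG00000022450, chr15:82350140-82354322), which sits in the matrix arm and binds the acyl carrier protein, had 41.1, 39.0, 46.5 and 51.5 CPM with vehicle, 53.9, 50.8, 47.7 and 44.1 at 10 µM and 52.9, 54.6, 73.8 and 59.6 at 50 µM. Every 50 µM library exceeded every vehicle library, with replicate 3 the highest (log2 fold change 0.44, SE 0.12, adjusted p = 0.0244 by edgeR's test). Ndufa12 (ENSMUSG00000020022, chr10:94198720-94221443), an accessory subunit of the matrix arm whose promoter stretch is shown above, had 31.2, 31.1, 31.7 and 29.2 CPM with vehicle, 40.4, 34.9, 27.5 and 33.1 at 10 µM and 38.8, 38.3, 44.5 and 35.4 at 50 µM. The vehicle libraries were tightly grouped and all lay below the 50 µM libraries (log2 fold change 0.36, SE 0.09, adjusted p = 0.0142 by edgeR's test). Neither passed against 10 µM, with adjusted p = 0.0597 and 0.200 by edgeR's test. Of the nuclear core subunits, several of which hold the flavin or iron-sulfur clusters, those named here did not pass in any comparison. Their log2 fold changes at 50 µM against vehicle ran from 0.00 for Ndufs1 through 0.08 for Ndufv1, 0.10 for Ndufv2, 0.13 for Ndufs7 and 0.20 for Ndufs3 to 0.27 for Ndufs8. Over all 39 nuclear members of complex I, 37 were above 0 and the median was 0.17.

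Complex II, the citric acid cycle enzyme succinate dehydrogenase, showed no member past the test at either dose. Sdha had 264 ± 16.5 CPM with vehicle and 258 ± 7.43 at 10 µM (SD, n = 4), and 270.0, 264, 243 and 271 CPM in the 50 µM libraries, which overlapped both other groups. Its log2 fold change at 50 µM against vehicle was -0.00147 with an SE of 0.07. Sdhb, the iron-sulfur subunit, had 0.21, and the membrane anchors Sdhc and Sdhd had 0.13 and 0.01, with an adjusted p of at least 0.158 for all 4 by edgeR's test. Complex II is the only complex with no mitochondrially encoded subunit.

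In complex III, Uqcrq (ENSMUSG00000044894, chr11:53427922-53430831), a small subunit beside cytochrome b, had 56.3, 51.4, 53.7 and 66.1 CPM with vehicle, 77.2, 69.5, 58.9 and 51.7 at 10 µM and 75.3, 81.3, 105 and 78.6 at 50 µM. At 50 µM all libraries lay above those with vehicle and overlapped 10 µM replicate 1. It rose by 0.59 (SE 0.11, adjusted p = 0.00417) against vehicle and by 0.41 (SE 0.12, adjusted p = 0.0328) against 10 µM on the log2 scale by edgeR's test, the largest rise against vehicle among nuclear members above 5 CPM. Uqcrc2 (ENSMUSG00000030884, chr7:120635176-120659524), a core protein of complex III, had 116, 106, 118 and 139 CPM with vehicle, 123, 120.2, 111 and 109 at 10 µM and 131, 135, 163 and 141 at 50 µM. It passed only against 10 µM, where the groups did not overlap (log2 fold change 0.30, SE 0.08, adjusted p = 0.0144 by edgeR's test), and its log2 fold change against vehicle was 0.26 (SE 0.10, adjusted p = 0.0981) by edgeR's test. Uqcrc1, the partner of Uqcrc2, and Uqcrfs1, the Rieske iron-sulfur protein, did not pass, with log2 fold changes of 0.05 and -0.10 against vehicle and 0.03 and -0.00357 against 10 µM. Members of 1 complex thus had different values, and no test compared them with each other.

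In complex IV, Cox7c and Cox8a passed beside Cox6a2. Cox7c (ENSMUSG00000017778, chr13:86044816-86046904), a small subunit around the catalytic core, had 59.1, 57.2, 64.7 and 70.6 CPM with vehicle, 70.7, 64.0, 57.8 and 53.6 at 10 µM and 76.1, 75.3, 84.2 and 77.9 at 50 µM. The 50 µM libraries lay above all others (log2 fold change 0.32, SE 0.08, adjusted p = 0.0214 against vehicle and log2 fold change 0.35, SE 0.08, adjusted p = 0.00978 against 10 µM by edgeR's test). Cox8a (ENSMUSG00000035885, chr19:7215153-7217616), another small subunit, had 121, 126, 139 and 157 CPM with vehicle, 168, 151, 136 and 122 at 10 µM and 161, 163, 182 and 158 at 50 µM. Its 50 µM libraries lay above the vehicle libraries and overlapped those of 10 µM (log2 fold change 0.30, SE 0.09, adjusted p = 0.0428 against vehicle by edgeR's test). The forms Cox7a2 and Cox7a2l, the latter a relative found where complexes III and IV associate, had log2 fold changes of 0.15 and 0.26 against vehicle and did not pass. Cox6b1 had 0.12.

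No member of complex V passed in any comparison. It holds the most strongly expressed nuclear members, Atp5b and Atp5a1. The subunits of the catalytic head had log2 fold changes at 50 µM against vehicle of -0.06 (Atp5a1), 0.04 (Atp5b), 0.14 (Atp5c1), 0.13 (Atp5d) and 0.28 (Atp5e), with SEs from 0.08 to 0.12. Atp5g1, Atp5g2 and Atp5g3, which encode the same mature ring subunit, had -0.06, 0.07 and -0.03. Atp5s, known as a coupling factor of the synthase, had the largest value (log2 fold change 0.54, SE 0.20, adjusted p = 0.0976 by edgeR's test) and a mean of 2.75 CPM with vehicle. The median log2 fold change of the nuclear members of complex V was 0.09, between 0.07 for complex II and 0.18 for complex IV. Groups did not overlap for 10 members higher and 1 lower at 50 µM against vehicle, 10.3% and 1.03%, where all genes gave 9.45% and 10.5%, and for 10 higher and 2 lower against 10 µM, where all genes gave 9.43% and 10.9%.

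**Figure D3:**
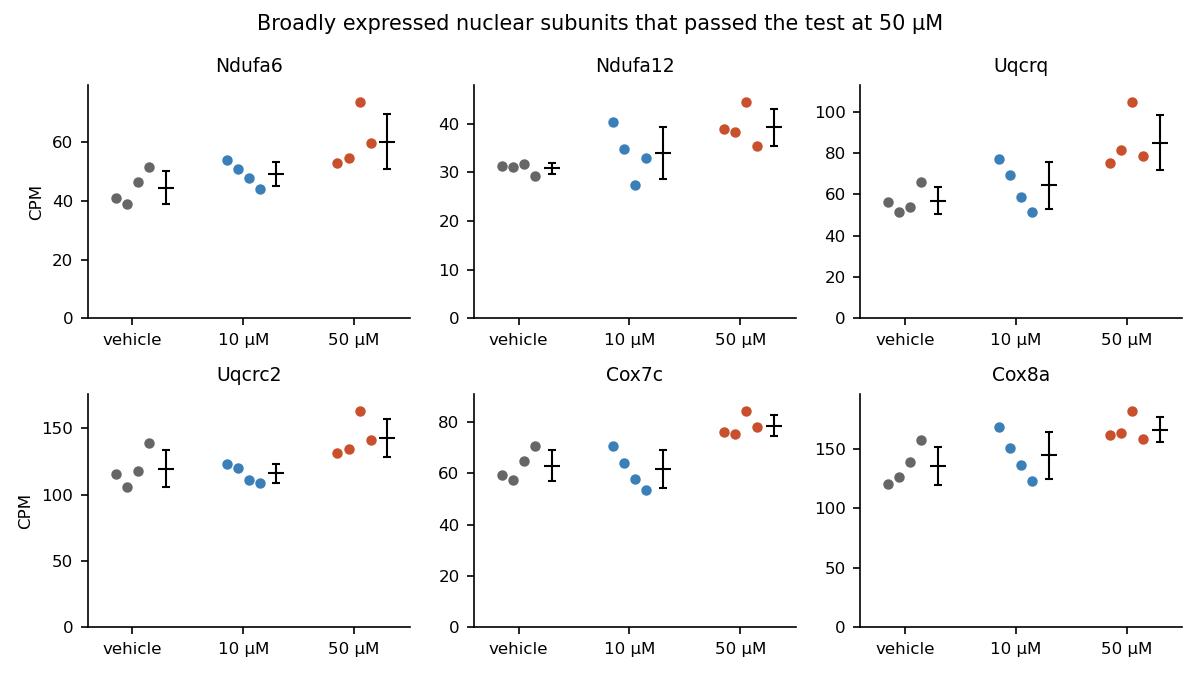
CPM in each library of the 6 broadly expressed nuclear members that passed edgeR's test at 50 µM against vehicle or 10 µM, with the mean and SD of the 4 libraries to the right. At 50 µM replicate 3 is the highest library for all 6, and among vehicle libraries replicate 4 is the highest for all but Ndufa12.

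The mitochondrially encoded members split into those that could be read alone and those that share their sequence with the nuclear copies. Among the former, mt-Cytb (ENSMUSG00000064370), the cytochrome b of complex III, had 1689.8, 2216, 1517 and 1128 CPM with vehicle, 1089, 1285, 1494 and 1697 at 10 µM and 1920.5, 2109, 2460.3 and 2082 at 50 µM. At 50 µM all libraries lay above those of 10 µM but not above vehicle replicate 2. It passed against 10 µM (log2 fold change 0.63, SE 0.11, adjusted p = 0.00122) and not against vehicle (log2 fold change 0.40, SE 0.15, adjusted p = 0.108) by edgeR's test. mt-Nd1 (ENSMUSG00000064341), a membrane subunit of complex I, had 1156, 1489, 1059.7 and 810.1 CPM with vehicle, 815, 909.6, 1063 and 1181 at 10 µM and 1125, 1373, 1533 and 1280.2 at 50 µM. It too passed only against 10 µM, with overlap between 10 µM replicate 4 and 50 µM replicate 1 (log2 fold change 0.42, SE 0.11, adjusted p = 0.0142 by edgeR's test). The complex I genes mt-Nd2, mt-Nd5 and mt-Nd6 had 0.02, -0.09 and -0.20 against vehicle and 0.20, 0.06 and -0.05 against 10 µM, none past the test. mt-Nd6, the only member on the other mitochondrial strand, had 238 ± 64.6 CPM with vehicle and 206 ± 23.1 at 50 µM (SD, n = 4).

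mt-Co2 (ENSMUSG00000064354), which carries the copper site that takes electrons from cytochrome c, had 81.8, 119, 106 and 63.9 CPM with vehicle, 112, 93.6, 85.3 and 114 at 10 µM and 123, 129, 193 and 162 at 50 µM. The 50 µM libraries lay above all others (log2 fold change 0.72, SE 0.18, adjusted p = 0.0163 against vehicle and log2 fold change 0.59, SE 0.13, adjusted p = 0.00530 against 10 µM by edgeR's test). Most reads of this sequence were counted on the copy, since Gm28661 had 829.6 CPM with vehicle and mt-Co2 92.6. With the reads of the copies added, an alternative chosen after seeing the data, mt-Co2 was 0.44 (SE 0.14, adjusted p = 0.0522) against vehicle and 0.66 (SE 0.15, adjusted p = 0.00621) against 10 µM on the log2 scale by edgeR's test, so that only the latter passed. mt-Nd3 (ENSMUSG00000064360), a small subunit of complex I, had 10.4, 10.3, 12.7 and 11.6 CPM with vehicle, 25.3, 13.8, 9.11 and 11.1 at 10 µM and 17.2, 13.3, 23.2 and 17.6 at 50 µM. The 50 µM libraries lay above all vehicle libraries, and 10 µM replicate 1 was the highest of all (log2 fold change 0.67, SE 0.15, adjusted p = 0.0111 against vehicle by edgeR's test). With Gm28438 added it was 0.33 (SE 0.11, adjusted p = 0.0710) against vehicle and 0.48 (SE 0.11, adjusted p = 0.00536) against 10 µM by edgeR's test, which exchanges the comparison in which it passed.

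The other genes with copies passed in neither form. mt-Co1 kept 82.6% of the joint CPM of gene and copies with vehicle, mt-Nd4 68.9%, and mt-Atp6, mt-Co3 and mt-Nd4l only 6.25%, 8.99% and 15.7%. For mt-Atp6 and mt-Co3 the log2 fold change at 50 µM against vehicle went from 0.21 and 0.34 to -0.08 and 0.04 with the copies added. The median over the 13 genes against vehicle went from 0.21 to 0.02, and against 10 µM from 0.17 to 0.26.

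**Figure D4:**
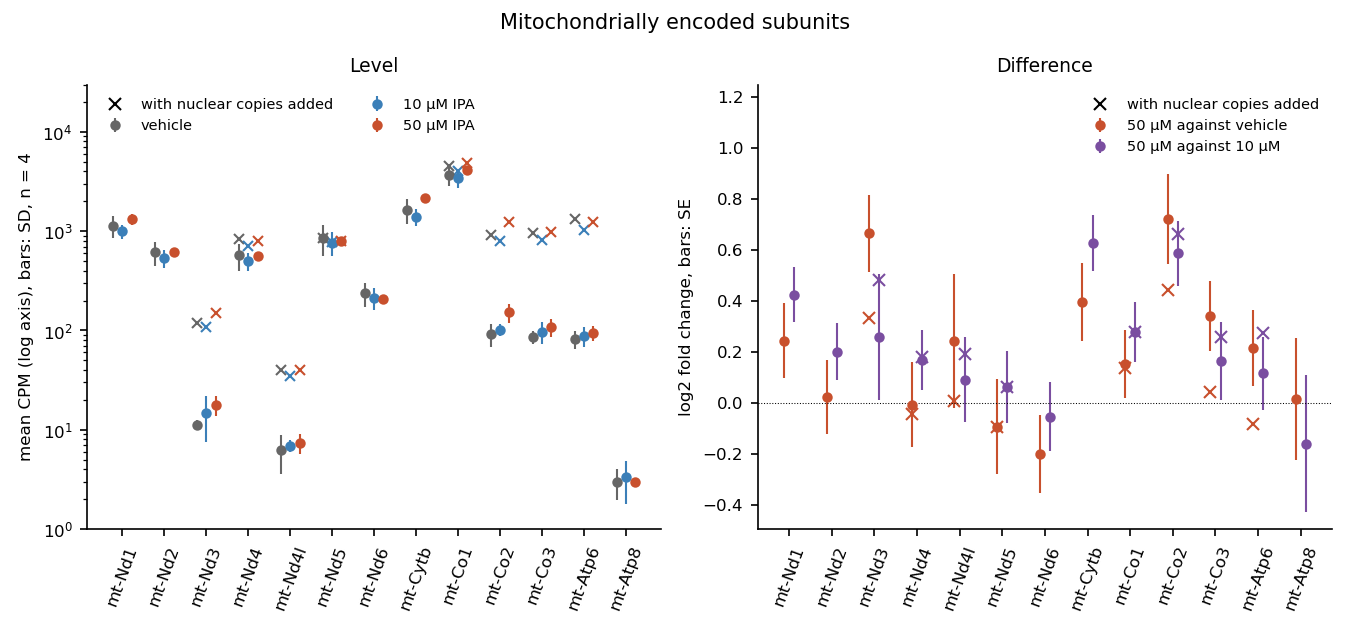
The 13 mitochondrially encoded members: mean CPM per group on a log axis with SD over 4 libraries (left), and log2 fold change with its SE in the comparisons of 50 µM (right), with crosses for the same values after adding reads of nuclear copies. mt-Co2, mt-Co3, mt-Atp6, mt-Nd3 and mt-Nd4l lie far higher in level with the copies added, and the differences of mt-Co2 and mt-Nd3 against vehicle become smaller.

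Nuclear and mitochondrial members were then set side by side in each library, as the median over members of the log2 deviation from the mean of the vehicle libraries. Nuclear members had -0.08, -0.15, -0.01 and 0.23 in vehicle replicates 1 to 4, 0.21, 0.10, -0.05 and -0.07 at 10 µM and 0.09, 0.07, 0.35 and 0.06 at 50 µM. Mitochondrial members had 0.01, 0.43, 0.01 and -0.49 with vehicle, -0.44, -0.28, -0.05 and 0.19 at 10 µM and 0.03, 0.06, 0.48 and 0.22 at 50 µM. Within the vehicle group and within the 10 µM group the order of the libraries by one median was exactly the reverse of the order by the other. At 50 µM both medians were above 0 in all 4 libraries, and replicate 3 was highest in both. The nuclear medians of the 50 µM libraries lay inside the range of the vehicle libraries except for replicate 3, as did the mitochondrial ones. Between doses, the median log2 fold change at 50 µM against vehicle was 0.13 for nuclear and 0.21 for mitochondrial members, and 0.01 for all genes tested. Against 10 µM it was 0.11, 0.17 and 0.01. Their sizes depended on single libraries. Against vehicle, the nuclear median was 0.21 and the mitochondrial one 0.03 without vehicle replicate 4, which reverses their order, and 0.06 and 0.09 without 50 µM replicate 3. Without vehicle replicate 2 the nuclear median was 0.08. Against 10 µM, they were 0.04 and 0.11 without 50 µM replicate 3, and the nuclear median was 0.05 without 10 µM replicate 4 and 0.17 without 10 µM replicate 1.

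The nuclear medians were also set beside a property of the libraries. In each library the deviations of all genes were set against log2 exon length, and the slope was 0.04, 0.04, 0.01 and -0.04 for vehicle replicates 1 to 4, -0.05, -0.01, 0.02 and 0.04 at 10 µM and 0.00, 0.00, -0.07 and 0.01 at 50 µM. A negative slope means that short genes had relatively more reads. Within each of the 3 groups the library with the lowest slope had the highest nuclear median (vehicle replicate 4, 10 µM replicate 1 and 50 µM replicate 3). The mitochondrial median did not follow this order, since it was the lowest of the group in the first 2 of these libraries and the highest only in 50 µM replicate 3. The members are short: the median exon length was 1523 bases for the nuclear and 784 bases for the mitochondrial ones, against 3872 over the tested genes with a length. With an offset per library for length, the nuclear median at 50 µM against vehicle was 0.07 and the mitochondrial one 0.08, and the 10 calls were kept. Against 10 µM they were 0.09 and 0.14, and 15 members passed in place of 9, the 9 among them. With this offset 13.4% of the members were called higher, beside 9.01% of all genes tested.

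**Figure D5:**
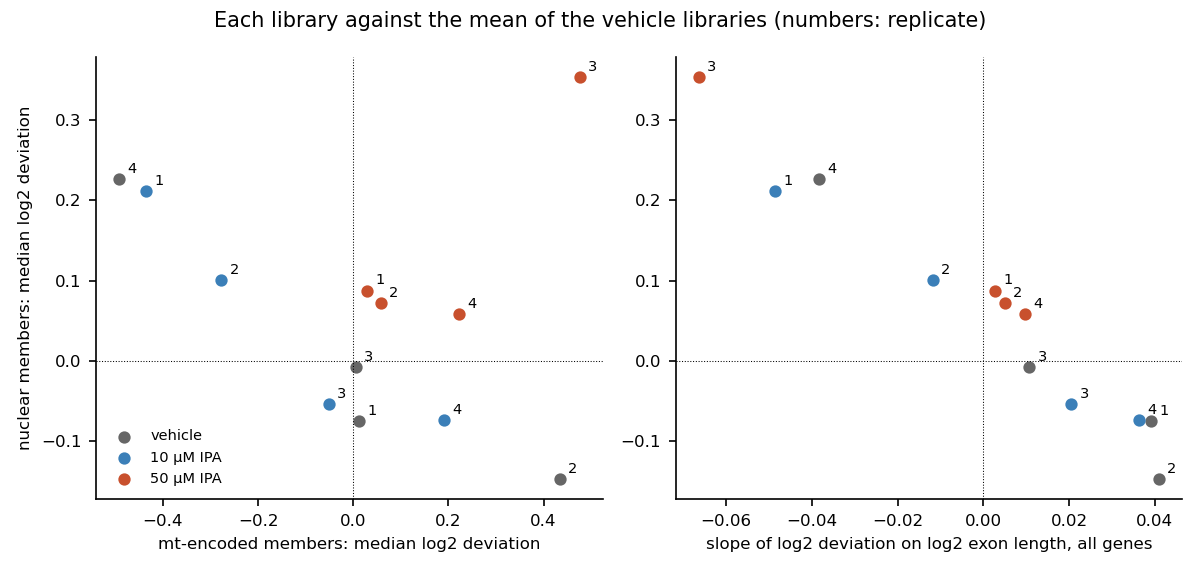
Median log2 deviation of the nuclear members from the vehicle mean in each library (vertical axis), against the same median of the mitochondrially encoded members (left) and against the library's slope of log2 deviation on log2 exon length over all genes (right). Vehicle and 10 µM libraries fall from upper left to lower right in the left panel, and 50 µM replicate 3 stands alone at the upper right.

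The number of calls depended on single libraries. Against vehicle the 10 members called became 29, 27 of them higher, without vehicle replicate 4. In that fit 27.8% of the members were called higher, beside 9.40% of all genes tested. The 10 calls became 5 without 50 µM replicate 3 or without replicate 4, and 6 without vehicle replicate 1 or 3. In these 4 fits, 4.12 to 5.15% of the members were called higher, beside 4.57 to 5.28% of all genes. Among the 29 were 13 members of complex I, 2 of complex II, 3 of complex III, 8 of complex IV and 3 of complex V. Leaving out 50 µM replicate 3 or 4 ended the calls of Cox4i2, Cox7c, Cox8a, Ndufa6 and mt-Co2, and vehicle replicate 1 those of Cox7c, Cox8a, Ndufa6 and mt-Co2. Vehicle replicates 2 and 3 each ended those of Cox4i2, Cox7c, Cox8a and Ndufa6, vehicle replicate 4 that of Cox4i2, 50 µM replicate 1 that of Cox8a, and 50 µM replicate 2 those of Cox4i2 and Cox8a. The highest adjusted p in these fits was 0.130 for Cox4i2, 0.132 for Cox8a, 0.0755 for Ndufa6, 0.0708 for Cox7c and 0.0627 for mt-Co2 by edgeR's test. Cox6a2, Ndufa4l2, Ndufa12, Uqcrq and mt-Nd3 passed in all 8 of these fits. Against 10 µM, 18 members passed without 10 µM replicate 1, and those higher were 16.5% of the members beside 7.27% of all genes tested. Uqcrq was lost there in 4 of the 8 fits (without 10 µM replicate 3 or 4 or 50 µM replicate 2 or 3, with an adjusted p of up to 0.0996) and mt-Nd1 in 1 (without 10 µM replicate 2, adjusted p = 0.0527) by edgeR's test.

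Other genes of the respiratory chain were counted from lists. Of 45 tested assembly factors, 3 rose at 50 µM against vehicle and none fell. They were Tmem126b, a factor of complex I (log2 fold change 0.53, adjusted p = 0.00416), Ndufaf7, a methyltransferase of complex I (log2 fold change 0.36, adjusted p = 0.0177), and Cox18, which helps to insert the mt-Co2 protein into the membrane (log2 fold change 0.43, adjusted p = 0.0453 by edgeR's test). Against 10 µM 2 rose, Ndufaf7 (log2 fold change 0.44, adjusted p = 0.00436) and Surf1, a factor of complex IV (log2 fold change 0.33, adjusted p = 0.0391 by edgeR's test). The shares of assembly factors called higher, 6.67% and 4.44%, were not above the 7.00% and 7.52% of all genes tested. None of 7 subunits and carriers outside the symbol rule and none of 8 adenine nucleotide carriers, phosphate carriers and uncouplers passed. Of 79 mitochondrial ribosomal proteins 1 rose in each comparison of 50 µM, Mrps10 against vehicle (log2 fold change 0.35, adjusted p = 0.0254) and Mrps30 against 10 µM (log2 fold change 0.26, adjusted p = 0.0405 by edgeR's test), which is 1.27% of them and below the same shares. Of 22 genes of mitochondrial DNA maintenance and transcription only Polg, the mitochondrial DNA polymerase, passed, and it fell (log2 fold change -0.51, adjusted p = 0.00384 against vehicle and log2 fold change -0.39, adjusted p = 0.00228 against 10 µM by edgeR's test). This is 4.55% of the list, below the 6.50% and 7.85% of all genes called lower.

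Of 7 transcription factors and coactivators of respiratory genes, Gabpa and Yy1 fell at 50 µM against vehicle (log2 fold change -0.29, adjusted p = 0.0231 and log2 fold change -0.24, adjusted p = 0.0277 by edgeR's test). Against 10 µM Gabpa fell (log2 fold change -0.25, adjusted p = 0.0302) and Ppargc1b, a coactivator, rose (log2 fold change 0.48, adjusted p = 0.0444 by edgeR's test). In this short list 28.6% were called lower and none higher against vehicle, beside 6.50% and 7.00% of all genes tested. Against 10 µM it was 14.3% each way, beside 7.85% lower and 7.52% higher. Of 18 citric acid cycle enzymes 1 rose against vehicle, Mdh2 (log2 fold change 0.44, adjusted p = 0.00116 by edgeR's test). Mdh2, Idh2, Idh3g and Dlst rose against 10 µM, by 0.37, 0.31, 0.23 and 0.21 on the log2 scale. The shares of these enzymes called higher were 5.56% and 22.2%, beside 7.00% and 7.52% of all genes tested. At 10 µM against vehicle no gene of these lists passed.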

How the data were processed

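The authors used Atropos for trimming, HISAT2 2.2.1 for alignment to mm10 and featureCounts 2.0.1 for counting on Ensembl genes. The deposited values are raw counts. The strand setting and the treatment of reads that match several places are not given in the sources used here, and reads shared with nuclear copies move the counts of mitochondrial genes. Replicate 3 of the 10 µM group carries the title of replicate 2 and was identified by library name.

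Genes above 0.5 CPM in at least 2 libraries were kept, and each pair of groups was fitted on its 8 libraries with edgeR 4.0.16 (TMM, glmQLFit, glmQLFTest, R 4.3.3), tested on simulated data before use. SE is the log2 fold change divided by the square root of F. Members and lists were chosen with earlier results of these data known. Genes were named if they passed, were mitochondrial, belonged to isoform sets or core subunits, or had the highest CPM of a complex. A gene that this rule names in complex I is not reported here. Alternatives were DESeq2 1.42.0, limma-voom (limma 3.58.1), other scalings and filters, all 12 libraries in 1 fit, a replicate block, offsets for length and GC content, and each library left out. Copies were added after seeing the data. Shared stretches were counted in GENCODE M21 transcripts. No library was a copy of another of its group.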

Additional observations from a re-analysis of the deposited data

Results flagged for a closer look

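The median log2 deviation of the nuclear members was 0.35 in 50 µM replicate 3, far from the other 3 libraries of its group, which lay between 0.06 and 0.09. The same library had the lowest slope of counts on exon length (-0.0664), and the part of that in its median was not tested. Without it the median log2 fold change of the nuclear members at 50 µM against vehicle was 0.06 in place of 0.13, and 57 of 84 were above 0 in place of 76.

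Over all 97 members and 4 library summaries, 303 groups of 4 libraries were examined by Dixon's ratio, and 15 stood out (4.95%), near the 1 group in 20 that chance flags. Of these 15, 10 were high values of 50 µM replicate 3. They were the nuclear median and the CPM of 9 members, which share the library and are not independent, with 63.5 for Ndufa7 (others 42.7 to 45.0), 35.1 for Ndufb4 (others 26.1 to 26.8), 3.64 for Ndufb4c (others 2.56 to 2.73), 36.3 for Ndufs5 (others 29.3 to 30.4), 114 for Sdhb (others 91.8 to 92.7), 129.9 for Cox6c (others 103 to 107), 125 for Atp5j (others 95.1 to 99.5), 105 for Atp5j2 (others 74.1 to 78.3) and 69.5 for Ndufa4 (others 58.9 to 60.6). The other 5 were Sdhd in vehicle replicate 4 with 179 (others 135 to 139), Ndufb11 in vehicle replicate 4 with 74.9 (others 56.7 to 59.7), Ndufb9 in 10 µM replicate 1 with 27.5 (lowest of the others 18.6), Ndufs1 in 10 µM replicate 4 with 81.6 (others 77.2 to 77.6) and Atp5g1 in 50 µM replicate 1 with 84.7 (others 77.6 to 78.4) CPM.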

How the results depend on the processing

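At 10 µM against vehicle no member passed under any alternative run. At 50 µM against vehicle between 7 and 12 passed in the fits with all libraries and between 5 and 29 when 1 library was left out. Against 10 µM the number was between 6 and 13 with all libraries, except for 15 with the offset for exon length, and between 8 and 18 when 1 library was left out. The highest and lowest counts with all libraries against vehicle came without a filter (10.3% of the members higher, beside 4.52% of all genes) and with at least 10 counts in every library (7.53% beside 8.19%), and against 10 µM the shares were 11.3% beside 5.55% and 6.45% beside 8.75%. The latter filter removed Cox6a2 and Ndufa4l2 from all comparisons and Cox4i2 from those of 50 µM. Same-numbered libraries correlated between -0.24 and 0.14, which does not show whether they came from the same marrow. The labels give no pairing. For viability and cell shares in such cultures the study used a repeated-measure ANOVA, which treats replicates as matched across doses. The main fits used no pairing. With the replicate block 0, 9 and 10 members passed in the 3 comparisons (10 µM and 50 µM against vehicle, 50 µM against 10 µM). In the first of these fits only 0.0134% of all genes were called higher and 0.00671% lower. At 50 µM against vehicle 8.25% of the members were higher and 1.03% lower, beside 6.67% and 5.62% of all genes. Against 10 µM the shares were 8.25% and 2.06%, beside 7.40% and 7.37%. Against vehicle the block ended the call of Cox4i2 (adjusted p = 0.102), the fit of all 12 libraries those of Cox8a (0.0524) and mt-Nd3 (0.0798), and the offset for GC content that of Cox8a (0.102). Against 10 µM the fit of all 12 libraries ended that of mt-Nd1 (0.0797), all adjusted p by edgeR's test. The medians of nuclear and mitochondrial members moved by less than the spread between libraries (1 SD) under every alternative, which does not keep their order or size, as the values without single libraries show. For members that passed in some comparison, the sign reversed only at 10 µM against vehicle, where none passed. When 1 library was left out, the log2 fold change ran from -1.01 to 0.11 for Cox6a2, from -0.11 to 0.030 for Cox7c, from -0.10 to 0.037 for Uqcrc2 and from -0.014 to 0.27 for mt-Co2, with the change of sign without vehicle replicate 4 and, for Cox7c, also without 10 µM replicate 4. With the reads of nuclear copies added it became -0.23 for mt-Co2 and -0.15 for mt-Nd3. The same addition turned mt-Atp6, mt-Co3 and mt-Nd4l from 0.09, 0.17 and 0.15 to -0.36, -0.22 and -0.19 at 10 µM, and mt-Atp6 from 0.21 to -0.08 at 50 µM, against vehicle, none past the test. The causes were not tested. Depth limits Cox6a2, Cox4i2 and Ndufa4l2, whose counts were below 60 reads per library with vehicle, and limma-voom gave -3.49 for Cox4i2 against 10 µM.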

Other observations

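The ribosomal RNA genes of the mitochondrial genome are no members and were read beside them after their values had been seen. mt-Rnr2 was lower at 50 µM than with vehicle (298 ± 20.2 against 388 ± 31.1 CPM, SD, n = 4, log2 fold change -0.37, adjusted p = 0.00667 by edgeR's test), while mt-Rnr1 had 162 ± 15.5 against 153 ± 15.3 CPM and did not pass (log2 fold change 0.09, adjusted p = 0.563 by edgeR's test). The libraries were made from poly(A) RNA, in which ribosomal RNA is a remainder.

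Other genes known to respond to low oxygen were looked up because Ndufa4l2 and Cox4i2 fell, so they too were chosen after values had been seen. Egln3, an oxygen-sensing hydroxylase, had 265 ± 120.0 CPM with vehicle, 363 ± 115 at 10 µM and 129.6 ± 21.8 at 50 µM (SD, n = 4), and was lower at 50 µM against both (log2 fold change -1.03, adjusted p = 0.0172 and log2 fold change -1.48, adjusted p = 3.26e-05 by edgeR's test). Bnip3, a mitophagy receptor, was lower against 10 µM (log2 fold change -1.27, adjusted p = 3.03e-05) and did not pass against vehicle (log2 fold change -0.68, adjusted p = 0.130 by edgeR's test). Mxi1 was lower at 50 µM against vehicle (log2 fold change -0.32, adjusted p = 0.0275) and against 10 µM (log2 fold change -0.46, adjusted p = 0.00149 by edgeR's test). Hif1a itself, a transcription factor of this response, was higher at 50 µM than with vehicle (log2 fold change 0.57, adjusted p = 0.000102) and than at 10 µM (log2 fold change 0.55, adjusted p = 5.01e-05 by edgeR's test). These genes were picked singly and not from a fixed list. Of all genes tested, 6.50% were called lower at 50 µM against vehicle and 7.85% against 10 µM. A response to low oxygen was not tested.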
